A study of Mus musculus with 8 samples.

Results

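Ribosome biogenesis and nucleolar genes were followed in intestinal epithelial cells of lactating mice with and without Rank. The set holds 54 genes of the 54532 in the count table, listed by name from their known roles. It was chosen with earlier results of these data known. It covers RNA polymerase I, nucleolar scaffold proteins and chaperones, the box C/D and box H/ACA small nucleolar ribonucleoproteins (snoRNPs), the factors that assemble snoRNPs, and the factors that build the small 40S and large 60S ribosomal subunits. The 4 WT and 4 Rank-knockout libraries came from mouse intestine, were labelled as epithelial cells and were taken at lactation day 5, with 1 library a sample. Libraries are called WT 1 to WT 4 and KO 1 to KO 4 after their replicate numbers, and values are given in that order. Rank is the common name of Tnfrsf11a, which encodes the receptor activator of NF-κB. Per the study's methods, the knockout (Rank Δvil) was made by crossing floxed Rank mice with Vil-cre mice, in which the villin promoter drives Cre in the intestinal epithelium, on a C57BL/6J background. WT and knockout females were littermates, and both were mated with WT males, so that their fetuses carried functional Rank. The study describes its mice as age-matched and gives 1 broad age range for all experiments, but the age of these animals, the part of the intestine taken for these libraries and whether the WT animals carried Vil-cre are not given in the sources used here.

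Ribosomes are assembled in the nucleolus, where RNA polymerase I transcribes the long precursor of most ribosomal RNAs. Box C/D snoRNPs guide 2′-O-methylation of the precursor and box H/ACA snoRNPs guide its pseudouridylation, while assembly factors fold, cut and package it into precursors of both subunits. In the gut, the proliferating cells of the crypts are known for prominent nucleoli and active ribosome production. The count table measures messenger RNA of the proteins that do this work. Ribosomal RNA itself was not measured, because reads matching ribosomal DNA had been removed.

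Promoter sequences are shown because many of these genes differed between genotypes together, and to make visible what the promoters of such genes look like. RefSeq windows on GRCm38.p6 were found for 47 of the 54 genes, with 53 start sites, and the 250 bases before each start were searched on both strands for the E-box CACGTG, a palindrome bound by MYC and its relatives, for the ETS core CCGGAAG and for the TATA box TATAAA. Windows of 4 genes are printed, those with an E-box or an ETS core, no annotated exon in the window and the smallest p among such genes. They are written 5′ to 3′ on the strand of the gene, and capitals mark the E-box and the ETS core on either strand. Nolc1 lies downstream of chr19:46075597-46075846 (plus strand), Gar1 of chr3:129831397-129831646 (minus strand), Ddx10 of chr9:53248113-53248362 (minus strand) and Nop2 of chr6:125131633-125131882 (plus strand).
Nolc1: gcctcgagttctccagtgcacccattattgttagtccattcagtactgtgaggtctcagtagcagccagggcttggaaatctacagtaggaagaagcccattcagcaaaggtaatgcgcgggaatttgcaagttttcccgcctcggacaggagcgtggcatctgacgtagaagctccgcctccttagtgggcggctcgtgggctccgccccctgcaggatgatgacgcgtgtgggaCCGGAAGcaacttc
Gar1: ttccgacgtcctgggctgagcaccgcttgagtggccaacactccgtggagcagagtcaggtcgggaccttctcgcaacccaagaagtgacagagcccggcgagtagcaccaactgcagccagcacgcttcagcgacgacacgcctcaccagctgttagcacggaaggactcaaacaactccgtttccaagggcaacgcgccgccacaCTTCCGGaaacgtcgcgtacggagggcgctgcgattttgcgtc
Ddx10: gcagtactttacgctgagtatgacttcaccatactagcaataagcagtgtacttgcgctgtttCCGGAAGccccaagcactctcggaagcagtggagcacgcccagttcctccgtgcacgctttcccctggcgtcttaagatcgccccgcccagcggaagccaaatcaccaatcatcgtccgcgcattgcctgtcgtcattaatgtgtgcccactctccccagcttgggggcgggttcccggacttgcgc
Nop2: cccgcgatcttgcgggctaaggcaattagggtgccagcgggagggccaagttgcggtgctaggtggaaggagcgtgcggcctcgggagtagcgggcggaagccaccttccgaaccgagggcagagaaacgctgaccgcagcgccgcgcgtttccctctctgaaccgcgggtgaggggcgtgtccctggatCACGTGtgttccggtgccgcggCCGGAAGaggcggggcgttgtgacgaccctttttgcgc

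In Nolc1 the ETS core began 14 bases before the start, whereas in Ddx10 it began 187 bases before it. The Nop2 window held both motifs. Of the 47 genes with a window, 11 (23.4%) had the ETS core, against 17.4% of the tested genes and 7.83% of all genes with a window. Other ribosome biogenesis genes, a wider list described below, had it in 36.4%, more often than the set. The E-box was found in 3 of the 47 (6.38%), against 10.6% of tested genes, 6.86% of all genes and 11.1% of the wider list. The TATA box was found in 4 (8.51%), against 7.84%, 14.3% and 5.05%. The median number of CpG dinucleotides per window was 15 for the set, 16 for tested genes and 6 for all windows. Genes with an E-box or ETS core and genes with neither had similar medians: 9 of 11 tested genes with a motif were higher in Rank-knockout with a median log2 fold change of 0.89, and 29 of 34 without one were higher with a median of 0.96. These are matches of letters in a fixed window and do not show that a factor binds there.

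The libraries held 1530781 to 4335653 counts each. Levels are given as CPM, counts relative to the library total after TMM scaling, and 10 CPM stood for 14.6 to 47.1 reads, so low genes were measured less precisely in the 3 shallowest libraries, all WT. Tnfrsf11a had 113, 196, 61 and 111 counts in WT and 128, 112, 79 and 179 counts in Rank-knockout. These counts overlapped as CPM between genotypes (log2 fold change -0.67, SE 0.22, edgeR adjusted p = 0.032), and because tags come from the 3′ end of transcripts they can lie outside the deleted part of the gene, so they check nothing about the labels. The call was lost with library totals (-0.47), with the 50 most abundant genes left out of library sizes (-0.54) and after thinning (-0.56), and without WT 1 (-0.55), WT 4 (-0.58), KO 1 (-0.52) or KO 3 (-0.64). Summed CPM of 8 epithelial genes, among them Epcam and Cdh1, was 9698 to 10701 in WT and 7692 to 9542 in Rank-knockout (3 of them higher and 3 lower). The 8 stromal and muscle genes summed to 10.7 to 18.8 CPM in WT and 5.85 to 18.8 CPM in Rank-knockout, with Vim the most abundant of them, and their collagen genes Col1a1, Col1a2 and Col3a1 had at most 7 counts in any library.

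Ribosome biogenesis genes were higher in Rank-knockout epithelium. Of the 52 genes with enough counts to be tested, 44 were higher and 0 lower (adjusted p under 0.05), against 15.8% higher and 14.6% lower among all 9855 tested genes. All 52 log2 fold changes were positive, from 0.22 for Pih1d1 to 2.06 for Ruvbl2, with a median of 0.95, while the median over all tested genes was 0.02. A change of at least 2-fold was found for 22 of the 52, against 6.12% of all tested genes. In 30 of them every Rank-knockout library was above every WT library, which was so for 14.4% of all tested genes. The set was chosen with earlier results of these data known, so these shares describe it and test nothing. All 54 are protein-coding (gene positions are on GRCm38, from GENCODE M21). Together they took 0.139% to 0.223% of the counts in WT and 0.295% to 0.571% in Rank-knockout. In RNA from whole epithelium, more cells with active nucleoli and more of these RNAs per cell cannot be told apart. Of the 44 calls, 32 held in every alternative tried, and no gene of the set changed direction in any. When libraries were scaled by their totals the median of all tested genes moved to 0.23 and that of the set to 1.16, so that the distance between these medians was 0.93 with both scalings.

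**Figure D1:**
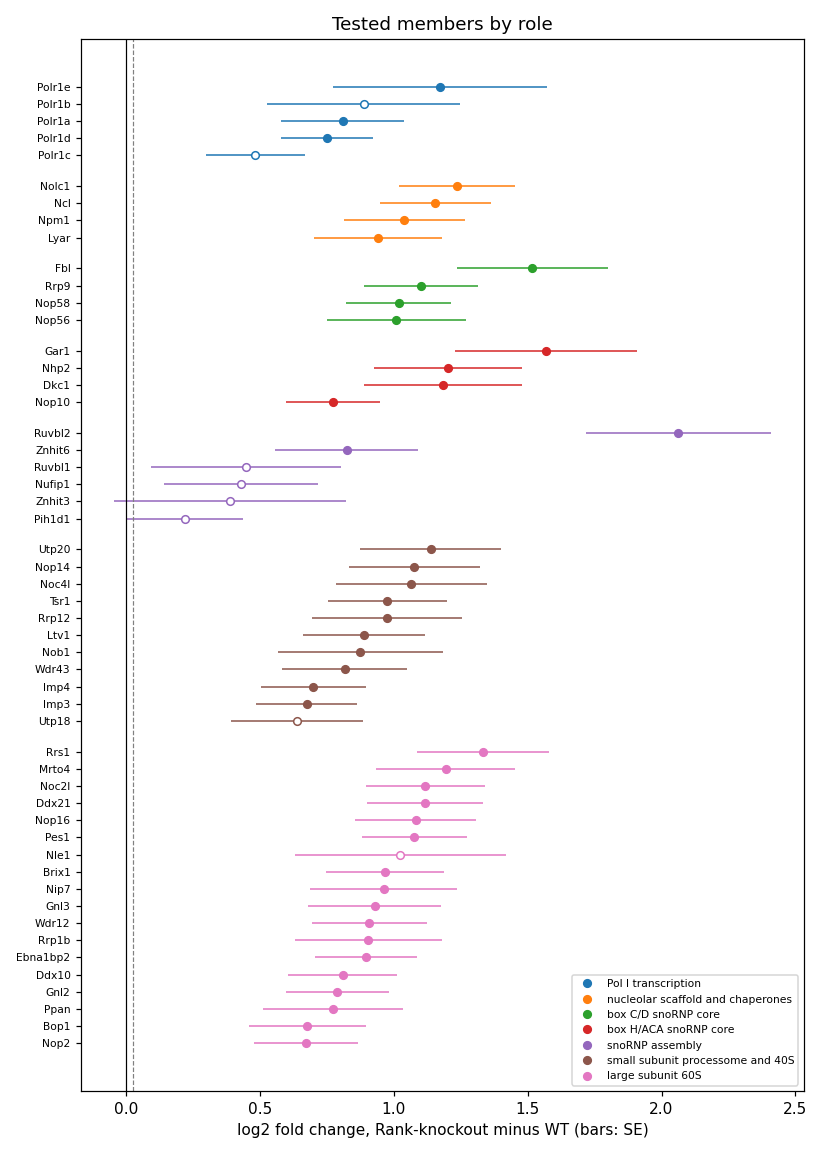
Log2 fold change (Rank-knockout minus WT, horizontal axis) of each of the 52 tested genes, grouped by role and ordered by size within each role, with bars of 1 standard error; filled points passed the test, open points did not, and the dashed line is the median of all tested genes (0.02). All points lie right of 0, and 4 of the 8 open points belong to snoRNP assembly.

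**Figure D2:**
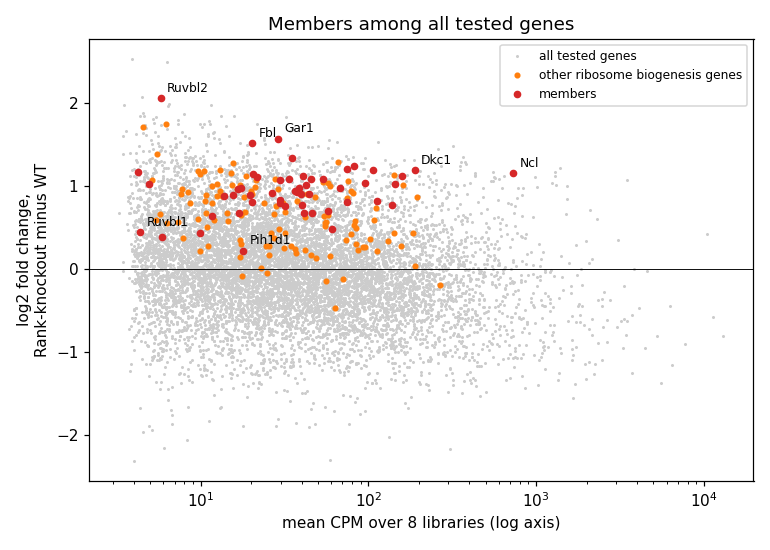
Log2 fold change (vertical axis) against mean CPM over the 8 libraries (log axis) for all 9855 tested genes (grey), the tested genes of the set (red) and the other ribosome biogenesis genes (orange, without the MYC network). The red points lie above 0 at low and high CPM alike, and the orange points are mostly above 0.

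RNA polymerase I genes were higher in 3 of 5 cases, against 15.8% of all tested genes, with a median log2 fold change of 0.81. Polr1d (ENSMUSG00000029642, chr5:147077050-147111597, plus strand), a subunit shared by polymerases I and III, had 26.7, 22.3, 25.3 and 20.6 CPM in WT and 40.8, 39.8, 42.3 and 36.4 CPM in Rank-knockout. Its genotypes did not overlap and its spread was small, with means going from 23.7 ± 2.76 to 39.8 ± 2.5 CPM (SD, n = 4 per genotype; log2 fold change 0.75, SE 0.17, edgeR adjusted p = 0.0043). Polr1a (ENSMUSG00000049553, chr6:71909053-71984935, plus strand), the largest subunit of the enzyme, had 15.8, 16.2, 15.0 and 11.98 CPM in WT and 36.5, 24.8, 22.5 and 19.8 CPM in Rank-knockout. It did not overlap either (log2 fold change 0.81, SE 0.23, edgeR adjusted p = 0.015), but the call was lost without WT 4 (0.69, adjusted p = 0.055) or KO 1 (0.58, adjusted p = 0.070). Polr1e, which encodes the PAF53 subunit, rested on few reads, 2, 17, 2 and 3 counts in WT and 28, 22, 12 and 19 counts in Rank-knockout. Its log2 fold change (1.17, edgeR adjusted p = 0.037) missed the threshold without WT 1, 3 or 4 and without KO 1, 2 or 3, where it was 0.99 to 1.23 with adjusted p of 0.055 to 0.10, with DESeq2 (adjusted p = 0.076) and without both libraries numbered 4 (1.17, adjusted p = 0.071). Polr1b, the second-largest subunit, had 14.4, 22.3, 9.56 and 5.99 CPM in WT and 36.5, 26.6, 27.4 and 13.7 CPM in Rank-knockout (log2 fold change 0.89, SE 0.36, edgeR adjusted p = 0.079), so that the lowest Rank-knockout library lay within the WT range. Polr1c, also shared with polymerase III, went from 50.4 ± 10.9 to 71.2 ± 13.2 CPM and did not pass the test (log2 fold change 0.48, SE 0.19, edgeR adjusted p = 0.059). Both passed without WT 2, where their values were 1.38 and 0.61, or without KO 4, where they were 1.11 and 0.55, and Polr1c also passed without KO 2 (0.57). With the replicate number as a block both passed, Polr1b at 0.97 (edgeR adjusted p = 0.0057) and Polr1c at 0.49 (edgeR adjusted p = 0.041). Both also passed with library totals (1.10 and 0.69), with the 50 most abundant genes left out of library sizes (1.02 and 0.61), with no filter on low counts (0.92 and 0.52) and after thinning to the shallowest total (1.37 and 0.57), and Polr1b without both libraries numbered 4 (0.89).

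Genes of the nucleolar scaffold and of nucleolar chaperones were higher in all 4 tested cases, with a median of 1.10. Nucleolin (Ncl, ENSMUSG00000026234, chr1:86344719-86359400, minus strand), an abundant RNA-binding protein of the nucleolus, had 515, 495, 485 and 314 CPM in WT and 1361, 891, 1101 and 679 CPM in Rank-knockout. Every Rank-knockout library was above every WT library, and the means rose from 452 ± 92.9 to 1008 ± 292 CPM (log2 fold change 1.16, SE 0.21, edgeR adjusted p = 0.0012). The gene hosts snoRNAs, and 2.12% of its exon bases are shared with annotated snoRNAs or a miRNA on the same strand. Nolc1 (ENSMUSG00000015176, chr19:46075863-46085530, plus strand), a chaperone of snoRNPs also known as Nopp140, had 51.4, 59.3, 45.8 and 37.9 CPM in WT and 155, 117, 121 and 70.4 CPM in Rank-knockout. Here too the genotypes were apart (log2 fold change 1.24, SE 0.22, edgeR adjusted p = 0.00097), with KO 4 the nearest to WT. Nucleophosmin (Npm1), a histone and ribosome chaperone that organizes the outer nucleolus, had 67.1, 70.2, 68.3 and 43.9 CPM in WT and 175, 118, 145 and 77.8 CPM in Rank-knockout (log2 fold change 1.04, SE 0.23, edgeR adjusted p = 0.0038). Lyar, a nucleolar zinc finger protein, went from 24.9 ± 4.06 to 48.2 ± 15.6 CPM (log2 fold change 0.94, SE 0.24, edgeR adjusted p = 0.0082), with KO 4 at 27.7 CPM inside the WT range. Npm3, the paralog of Npm1, was below the filter on low counts and had 1, 7, 2 and 1 counts in WT and 33, 8, 7 and 15 counts in Rank-knockout, 11 against 63 reads in all. Fitted with no filter it gave 1.81 on the log2 scale (SE 0.54, edgeR adjusted p = 0.0085), and a copy annotated as a pseudogene could share its reads.

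All 4 box C/D snoRNP genes of the set were higher, with a median of 1.06. Fibrillarin (Fbl, ENSMUSG00000046865, chr7:28169710-28179269, plus strand), the methyltransferase of the particle, had 8.22, 13.7, 8.20 and 9.98 CPM in WT and 21.0, 40.9, 39.1 and 21.9 CPM in Rank-knockout. No library overlapped, and KO 2 and KO 3 were well above KO 1 and KO 4 (log2 fold change 1.52, SE 0.28, edgeR adjusted p = 0.0012). Rrp9 (ENSMUSG00000041506, chr9:106475963-106485424, plus strand), the protein specific to the U3 snoRNP, had 11.6, 14.4, 17.8 and 11.3 CPM in WT and 34.8, 30.8, 29.7 and 23.7 CPM in Rank-knockout. Its means went from 13.8 ± 2.99 to 29.7 ± 4.58 CPM (log2 fold change 1.10, SE 0.21, edgeR adjusted p = 0.0015). The scaffold partners Nop58 and Nop56, which bind the guide RNA and hold the particle together, both rose. Nop58 had 115, 102, 95.6 and 67.9 CPM in WT and 232, 209, 205 and 126 CPM in Rank-knockout (log2 fold change 1.02, SE 0.20, edgeR adjusted p = 0.0017), and Nop56 went from 27.6 ± 9.13 to 57.2 ± 16.4 CPM (log2 fold change 1.01, SE 0.26, edgeR adjusted p = 0.0096). Both host snoRNAs, which share 0.781% of the exon bases of Nop58 and 8% of those of Nop56.

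The 4 box H/ACA core genes were also all higher, and their median of 1.19 was the highest of the 7 roles. Nop10 (ENSMUSG00000027133, chr2:112261926-112263269, plus strand), a small protein that binds the pseudouridine synthase, had 106, 127, 100.4 and 70.6 CPM in WT and 201, 171, 184 and 140.0 CPM in Rank-knockout. Its genotypes did not overlap (log2 fold change 0.77, SE 0.17, edgeR adjusted p = 0.0041). Gar1 (ENSMUSG00000028010, chr3:129824912-129831396, minus strand), which helps the particle release its substrate, had 15.1, 7.35, 24.6 and 14.0 CPM in WT and 59.2, 39.0, 46.3 and 25.3 CPM in Rank-knockout. The difference passed the test with a wide error (log2 fold change 1.57, SE 0.34, edgeR adjusted p = 0.0044), and the highest WT library lay just below the lowest Rank-knockout library. Dyskerin (Dkc1), the pseudouridine synthase itself, had 123, 169, 95.6 and 69.2 CPM in WT and 291, 299.8, 317 and 146 CPM in Rank-knockout. In 3 of the 4 Rank-knockout libraries it was far above WT, whereas KO 4 was below WT 2 (log2 fold change 1.18, SE 0.29, edgeR adjusted p = 0.012). Nhp2, an RNA-binding core protein, went from 44.6 ± 16.8 to 106 ± 32.6 CPM and overlapped in the same way (log2 fold change 1.20, SE 0.28, edgeR adjusted p = 0.0064).

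Of the 6 factors that assemble snoRNPs, 2 were higher, with a median of 0.44. Of all tested genes 15.8% were higher, and with 6 genes nothing is read from this count. Ruvbl2 (ENSMUSG00000003868, chr7:45421760-45438096, minus strand), an AAA+ ATPase that forms a ring with Ruvbl1 and also belongs to chromatin remodelling complexes, had the largest fold change of the set. It had 2, 7, 5 and 4 counts in WT and 46, 28, 18 and 33 counts in Rank-knockout, or 1.37, 1.77, 3.41 and 2.66 CPM in WT and 9.76, 10.51, 8.09 and 8.70 CPM in Rank-knockout. The genotypes were well apart at few reads (log2 fold change 2.06, SE 0.35, edgeR adjusted p = 0.00067), a 4.18-fold difference. Its partner Ruvbl1 had 3.43, 3.29, 5.46 and 2.66 CPM in WT and 5.31, 5.25, 5.85 and 3.69 CPM in Rank-knockout, and these ranges overlapped (log2 fold change 0.45, SE 0.35, edgeR adjusted p = 0.36). Znhit6 (ENSMUSG00000074182, chr3:145576205-145604795, plus strand), a box C/D assembly factor also known as BCD1, had 20.6, 27.1, 19.1 and 17.3 CPM in WT and 44.4, 45.8, 45.0 and 18.7 CPM in Rank-knockout. In 3 of 4 Rank-knockout libraries it was between 44.4 and 45.8 CPM and in KO 4 it was within the WT range (log2 fold change 0.82, SE 0.27, edgeR adjusted p = 0.030). The Znhit6 call was lost with limma-voom (adjusted p = 0.10) and without WT 1, 3 or 4 or KO 1, 2 or 3, with log2 fold changes of 0.71 to 0.77. The other 3 assembly factors did not pass the test. Nufip1, a platform protein for box C/D assembly, went from 8.19 ± 3.17 to 11.7 ± 1.97 CPM (log2 fold change 0.43, SE 0.29, edgeR adjusted p = 0.27). Pih1d1, a subunit of the R2TP chaperone complex, went from 16.4 ± 3.15 to 19.5 ± 3.08 CPM (log2 fold change 0.22, SE 0.22, edgeR adjusted p = 0.47). Znhit3, which stabilizes Nufip1, went from 5.09 ± 2.55 to 6.71 ± 3.52 CPM (log2 fold change 0.39, SE 0.43, edgeR adjusted p = 0.53). These 4 genes without a call, Ruvbl1 included, passed in none of the alternatives.

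Ruvbl1 and Ruvbl2 act as 1 complex, so their ratio was compared within each library. The log2 ratio of Ruvbl1 to Ruvbl2 was 0.98, 0.68, 0.58 and 0.00 in WT and -0.80, -0.91, -0.42 and -1.09 in Rank-knockout. The genotypes did not overlap, and the mean went from 0.56 ± 0.41 to -0.81 ± 0.28 (SD, n = 4), a difference of -1.37 with an exact two-sided permutation p of 0.029. That is the smallest p this design allows. Over the 7 ratios between partner genes that were compared, the adjusted p of this exact test was 0.20. A lone ratio at the smallest p cannot be adjusted below that value, so nothing is read from the adjusted p. The ratio was chosen after the fold change of Ruvbl2 was seen, and its difference was -1.55 to -1.23 with any 1 library left out. Ratios of Nop56 to Nop58, Gnl2 to Gnl3, Imp3 to Imp4 and among Bop1, Pes1 and Wdr12 differed by -0.38 to 0.15 between genotypes, with exact permutation adjusted p of 0.35 to 1. For the same reason nothing is read from these adjusted p-values, which do not show that the ratios were equal.

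Of 11 genes of the small subunit processome and 40S assembly, 10 were higher, against 15.8% of all tested genes, with a median of 0.89. Nop14 (ENSMUSG00000036693, chr5:34638536-34660148, minus strand), a processome component needed for 18S rRNA maturation, had 19.9, 26.9, 22.5 and 16.0 CPM in WT and 59.0, 46.9, 52.2 and 26.4 CPM in Rank-knockout. KO 4 was just below WT 2, and the other knockout libraries were above all WT libraries (log2 fold change 1.08, SE 0.25, edgeR adjusted p = 0.0044). Tsr1 (ENSMUSG00000038335, chr11:74898071-74909342, plus strand), a GTPase-like factor of late 40S assembly, had 53.4, 49.2, 45.1 and 35.9 CPM in WT and 134, 85.9, 81.8 and 59.0 CPM in Rank-knockout. Its genotypes did not overlap (log2 fold change 0.97, SE 0.22, edgeR adjusted p = 0.0046). The other 8 called genes were Imp3, Imp4, Utp20, Wdr43 and Noc4l, which belong to the processome, and Rrp12, Nob1 and Ltv1, which act in 40S maturation and export, with log2 fold changes from 0.67 for Imp3 to 1.14 for Utp20. Among them Utp20, Imp3, Imp4 and Ltv1 did not overlap between genotypes. Imp3 and Imp4, partners in the U3 snoRNP, changed by 0.67 (SE 0.19) and 0.70 (SE 0.20) on the log2 scale. Nob1, the endonuclease that makes the 3′ end of 18S rRNA, had 11.6, 8.11, 3.41 and 16.6 CPM in WT and 19.95, 19.1, 14.8 and 17.1 CPM in Rank-knockout (log2 fold change 0.88, SE 0.31, edgeR adjusted p = 0.042), and WT alone spanned 3.41 to 16.6 CPM. Utp18, a processome WD-repeat protein, went from 8.999 ± 1.84 to 14.5 ± 2.5 CPM and did not pass (log2 fold change 0.64, SE 0.25, edgeR adjusted p = 0.060). Leaving out WT 4 ended the calls of Imp3 (0.52), Imp4 (0.55), Wdr43 (0.64) and Rrp12 (0.81). Leaving out KO 1 ended those of Imp4 (0.53), Wdr43 (0.63) and Nob1 (0.81). Without WT 3 the calls of Wdr43 (0.77), Rrp12 (0.80) and Nob1 (0.62) were lost, without WT 1 those of Rrp12 (0.87) and Nob1 (0.93), and Nob1 also lost its call without WT 2 (0.75), KO 2 (0.84) or KO 3 (0.94). Utp18 passed without WT 2 (0.77) or KO 4 (0.76), with the replicate number as a block (0.67, edgeR adjusted p = 0.044), with library totals (0.84) and with the 50 most abundant genes left out of library sizes (0.77).

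Of the 18 tested genes listed under 60S assembly, 17 were higher, against 15.8% of all tested genes, with a median of 0.95. In 13 every Rank-knockout library was above every WT library, against 14.4% of all tested genes. Each gene was counted under 1 listed role, whatever other steps it acts in. Pes1 (ENSMUSG00000020430, chr11:3963975-3980004, plus strand), pescadillo, which with Bop1 and Wdr12 forms a complex needed to process the 5.8S and 28S rRNA precursors, had 41.8, 39.5, 28 and 27.3 CPM in WT and 77.9, 86.3, 76.0 and 51.9 CPM in Rank-knockout. The means went from 34.2 ± 7.57 to 73.0 ± 14.8 CPM (log2 fold change 1.08, SE 0.20, edgeR adjusted p = 0.0011). Bop1 went from 12.8 ± 2.96 to 21.0 ± 2.06 CPM (log2 fold change 0.68, SE 0.22, edgeR adjusted p = 0.028) and Wdr12 from 18.2 ± 4.68 to 34.8 ± 5.86 CPM (log2 fold change 0.91, SE 0.21, edgeR adjusted p = 0.0053), so the mRNAs of all 3 members of the complex were higher. Rrs1 (ENSMUSG00000061024, chr1:9545408-9547455, plus strand), which helps bring the 5S ribonucleoprotein into the precursor, had 24.7, 15.5, 21.2 and 19.97 CPM in WT and 69.6, 43.5, 55.3 and 31.1 CPM in Rank-knockout. This was the largest change of the genes listed under 60S assembly (log2 fold change 1.33, SE 0.25, edgeR adjusted p = 0.0013). The GTPases Gnl2 and Gnl3, the second also known as nucleostemin, changed by 0.79 (SE 0.19) and 0.93 (SE 0.25) on the log2 scale. The remaining called genes were the rRNA cytosine methyltransferase Nop2, the RNA helicases Ddx21 and Ddx10, and Nop16, Rrp1b, Ebna1bp2, Mrto4, Nip7, Ppan, Brix1 and Noc2l, with log2 fold changes from 0.67 for Nop2 to 1.19 for Mrto4. Mrto4 has 2 annotated pseudogenes that could share its reads. Only pseudogenes named after a gene of the set were searched for, so copies under other names could be missed for any gene. Nle1, a Notchless homolog and 60S factor, had 3.43, 5.57, 1.37 and 1.33 CPM in WT and 8.28, 5.25, 6.74 and 7.38 CPM in Rank-knockout and did not pass (log2 fold change 1.02, SE 0.39, edgeR adjusted p = 0.059). Nle1 passed without WT 2 (1.76), with limma-voom (1.24, adjusted p = 0.033), with library totals (1.23), with the 50 most abundant genes left out of library sizes (1.16) and with no filter on low counts (1.06). Wdr74 was too low to test, with 0, 6, 0 and 1 counts in WT and 7, 5, 6 and 4 counts in Rank-knockout, 7 against 22 reads, and a fit with no filter gave 1.12 on the log2 scale (SE 0.76, edgeR adjusted p = 0.38). Calls were lost without WT 4 for Nop2 (0.55), Bop1 (0.63), Rrp1b (0.71) and Ppan (0.62), and without KO 1 for Nop2 (0.53), Bop1 (0.60), Rrp1b (0.67) and Ppan (0.59). They were also lost without WT 3 for Bop1 (0.53) and Ppan (0.57), without WT 1 for Bop1 (0.66), without KO 2 for Rrp1b (0.87) and Ppan (0.81), and without KO 3 for Bop1 (0.69) and Ppan (0.78). Bop1 also lost its call with DESeq2 (0.66, adjusted p = 0.060) and without both libraries numbered 4 (0.69, edgeR adjusted p = 0.064), and Rrp1b with limma-voom (0.83, adjusted p = 0.055).

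**Figure D3:**
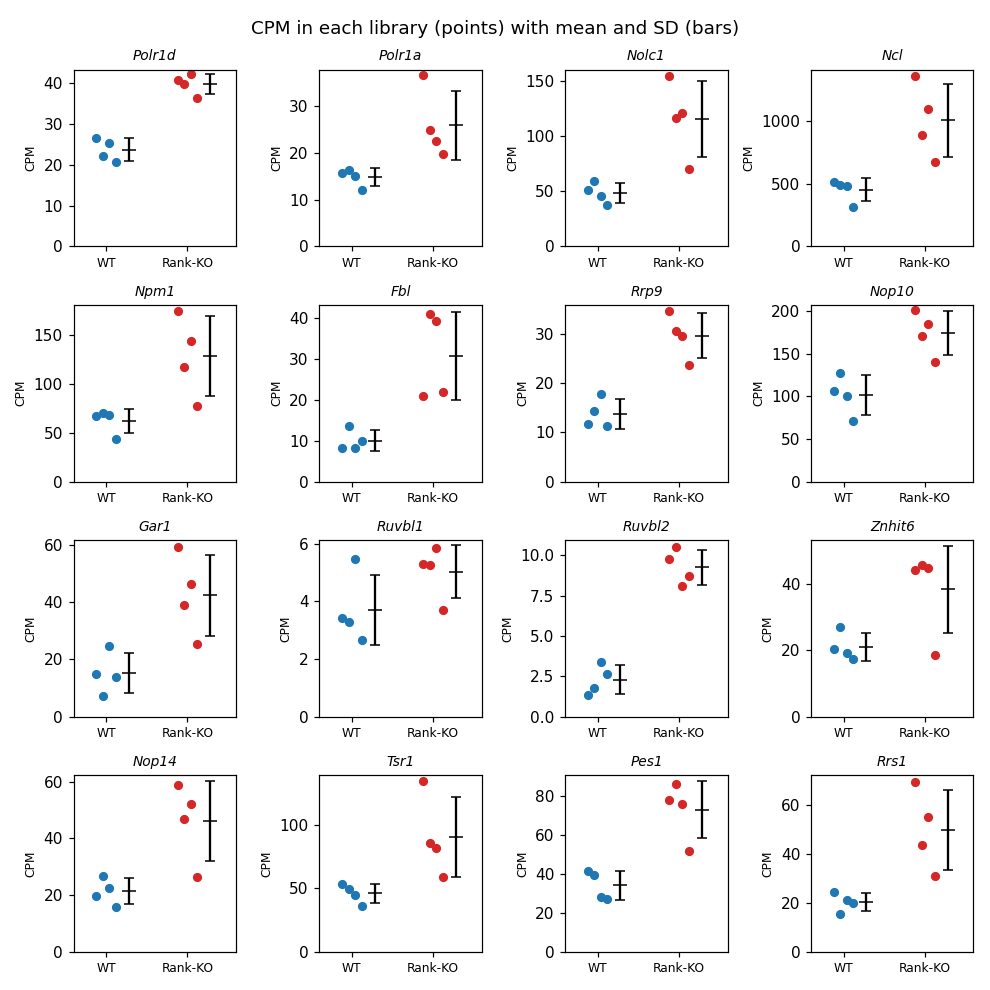
CPM in each library (points; blue WT, red Rank-knockout, libraries 1 to 4 from left to right) with the mean and SD beside them (black), for the 2 genes of each role with the smallest p and for the partner genes Npm1 and Ruvbl1; every vertical axis starts at 0. Ruvbl1, Znhit6 and Nop14 are the genes shown whose genotypes overlap.

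A wider list of ribosome biogenesis genes was compared in the same way. Of 117 tested genes outside the 54, 64 (54.7%) were higher and 0 lower, and 111 had positive values, with a median log2 fold change of 0.64. The count of 64 fell to 37 without KO 1, 38 without WT 4 and 41 without WT 3. Over all tested genes the share higher also fell in these fits, from 15.8% to 10.8%, 10% and 11.8%. Polymerase I factors were called in 2 of 10, Tcof1 and Taf1d, a share near the 15.8% of all tested genes that were higher. Tcof1, which encodes treacle, a cofactor of polymerase I, had 51.4, 38.8, 30.0 and 32.0 CPM in WT and 129, 87.4, 93.97 and 61.2 CPM in Rank-knockout, with no overlap (log2 fold change 1.29, SE 0.23, edgeR adjusted p = 0.00095). Taf1d, a subunit of the promoter factor SL1, had a log2 fold change of 0.49, edgeR adjusted p = 0.041, a call lost without WT 1 (0.47), 2 (0.37) or 3 (0.42) and without KO 1 (0.40), 2 (0.50) or 3 (0.51). Nucleolar scaffold genes were higher in 4 of 9, led by Rsl1d1 (1.004, edgeR adjusted p = 0.0014) and Urb1 (1.71, edgeR adjusted p = 0.0026). Snu13, a box C/D core protein outside the 54, had 3.43, 10.1, 8.20 and 0 CPM in WT and 12.7, 4.88, 14.4 and 4.74 CPM in Rank-knockout, a spread that covered both genotypes (log2 fold change 0.57, SE 0.61, edgeR adjusted p = 0.52). The H/ACA assembly factors Naf1 (0.88, edgeR adjusted p = 0.031) and Shq1 (1.07, edgeR adjusted p = 0.034) were higher, both calls being lost without WT 1, 3 or 4 or KO 1 or 2, with values of 0.75 to 0.88 for Naf1 and 0.84 to 1.11 for Shq1. Naf1 also lost its call without KO 3 (0.79) and with limma-voom (0.77, adjusted p = 0.093). Shq1 lost it with DESeq2 (1.08, adjusted p = 0.083) and without both libraries numbered 4 (0.99, edgeR adjusted p = 0.082).

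Small subunit factors outside the 54 were higher in 26 of 41. Emg1, which methylates a pseudouridine of 18S rRNA, had 99.3, 68.9, 90.8 and 99.8 CPM in WT and 205, 186, 210.0 and 178 CPM in Rank-knockout. Its 8 libraries fell into separate, narrow groups (log2 fold change 1.13, SE 0.15, edgeR adjusted p = 0.00019), and KO 4, low for most genes of the set, was close to the others here. Utp6, a processome component, went from 29.7 ± 5.23 to 56.2 ± 6.43 CPM (log2 fold change 0.90, SE 0.17, edgeR adjusted p = 0.0015). Genes outside the 54 that were listed under the large subunit were higher in 23 of 40. Rpf2, the partner of Rrs1 in 5S assembly, had 6.85, 11.1, 10.2 and 7.32 CPM in WT and 22.1, 22.1, 23.4 and 21.6 CPM in Rank-knockout and again little spread among Rank-knockout libraries (log2 fold change 1.27, SE 0.22, edgeR adjusted p = 0.00083). Rbm19, an RNA-binding factor of the nucleolus, rested on few reads, 5, 15, 2 and 3 counts in WT and 51, 27, 23 and 30 counts in Rank-knockout (log2 fold change 1.75, SE 0.34, edgeR adjusted p = 0.0015). The exosome and rRNA decay genes were higher in 7 of 13, with Exosc8 (1.09, edgeR adjusted p = 0.0042) and Exosc1 (1.15, edgeR adjusted p = 0.0071) the smallest in p.

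MYC activates many ribosome biogenesis genes in other settings, so genes of its network were listed with the pathway. Of 10 tested network genes 0 were higher and 3 lower, against 15.8% and 14.6% of all tested genes, and with 10 genes nothing about the network is read from these counts. Myc itself was below the filter on low counts, with 10, 5, 3 and 1 counts in WT and 16, 12, 5 and 8 in Rank-knockout. Its means were 2.71 ± 2.82 and 3.06 ± 1.12 CPM, and whether it differed was not tested. Mxd1, which pairs with MAX and represses MYC targets, had 854, 810.4, 1109 and 1267 CPM in WT and 533, 428, 292 and 669 CPM in Rank-knockout. The genotypes did not overlap and Mxd1 fell by 1.07 on the log2 scale (SE 0.23, edgeR adjusted p = 0.0032). Max, the shared partner, went from 503 ± 100.3 to 289 ± 64.8 CPM (log2 fold change -0.80, SE 0.18, edgeR adjusted p = 0.0043), and Mxd4, a relative of Mxd1, from 145 ± 25.6 to 103 ± 13.3 CPM (log2 fold change -0.50, SE 0.16, edgeR adjusted p = 0.024). The call of Mxd4 was lost with library totals (-0.30), with the 50 most abundant genes left out of library sizes (-0.37), and without WT 2 (-0.40), WT 4 (-0.49), KO 1 (-0.42), KO 2 (-0.496) or KO 3 (-0.51).

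The genes of the set moved together from library to library within a genotype. Their mean log2 CPM was 4.63, 4.80, 4.49 and 4.19 in WT and 5.77, 5.54, 5.59 and 5.01 in Rank-knockout, or 4.53 ± 0.26 and 5.48 ± 0.32 (SD, n = 4). WT 4 had the lowest WT value for 38 of 52 genes (73.1%), against 25.8% of all tested genes. KO 4 had the lowest knockout value for 45 (86.5%), against 30.8% of all tested genes. At the other end WT 2 was highest for 31 (59.6%, against 29.3%) and KO 1 for 33 (63.5%, against 29%). Without KO 4 the number of genes with no overlap rose from 30 to 45, against 20.8% of all tested genes, and without WT 2 to 41, against 19.5%. Without both libraries numbered 4, an alternative chosen after seeing the data, 43 genes of the set were higher, against 13.8% of all tested genes. The median was 1.003 and 46 did not overlap, against 22.7% of all tested genes. The number of higher genes was 33 without WT 4, with a median of 0.80. In that fit 10% of all tested genes were higher, compared with 15.8% in the main fit.

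**Figure D4:**
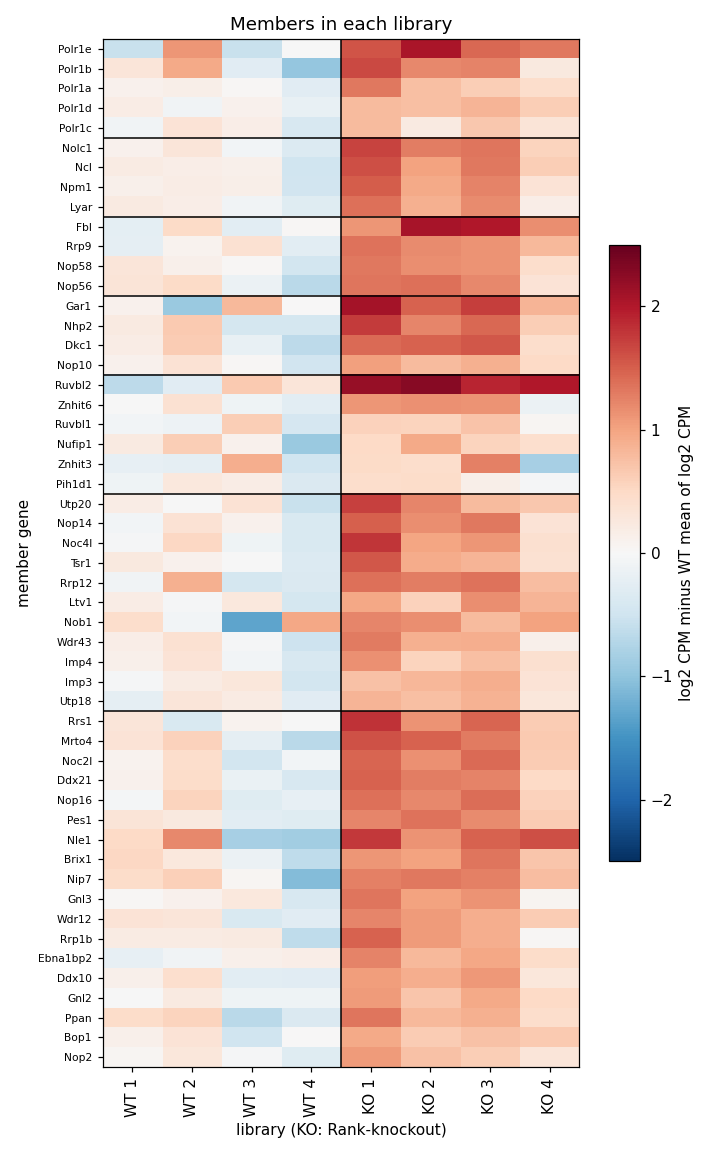
Log2 CPM of each of the 52 tested genes (rows, grouped by role in the order of the text) in each library (columns), minus the WT mean of that gene; red is above and blue below the WT mean. Rank-knockout columns are red for most genes, with KO 4 the palest, and WT 4 is blue for most.

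Markers of cycling cells moved with the set. All 14 tested cycling genes, such as Mki67, Top2a and Ccna2, were higher in Rank-knockout, with a median log2 fold change of 1.22. Their summed CPM was 810, 885, 850 and 566 in WT and 2279.7, 1708, 1752 and 1458 in Rank-knockout, so that the library numbered 4 was the lowest of its genotype in both, as for the set. Of 7 tested crypt stem cell markers 4 were higher, all 7 values were positive with a median of 1.08, and summed CPM was 331 to 483 in WT and 496 to 1077 in Rank-knockout. Of 9 Paneth markers 4 were higher, and all 9 values were positive with a median of 1.22. Over all tested genes 15.8% were higher and 14.6% lower. Villus enterocyte markers went the other way, with 13 of 14 lower, a median of -1.22 and summed CPM of 28592 to 40623 in WT and 13956 to 19171 in Rank-knockout. WT 4 had the highest villus sum and WT 2 the lowest, which is the reverse of their order in the set. T cell markers were not called in 7 tested cases, with summed CPM of 235 to 358 in WT and 161 to 268 in Rank-knockout, and of 2 tested B cell markers and 1 stromal marker 0 were called, Cd79a being at 0 in every library. Goblet markers were higher in 1 of 7, which is near the share over all tested genes, and lower in 4 of 7, with a median of -0.58, and 0 of 7 enteroendocrine and 0 of 3 tuft cell markers were called. The part of cycling or crypt cells in the difference of the ribosome biogenesis genes was not tested.

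**Figure D5:**
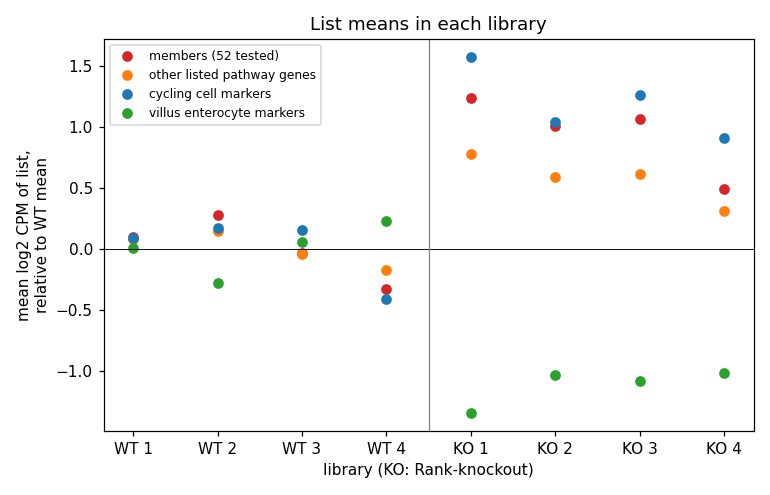
Mean log2 CPM of the 52 tested genes of the set, of the 127 tested genes of the wider pathway list with the MYC network, of 14 cycling cell markers and of 14 villus enterocyte markers in each library (points), each relative to its own WT mean. In both genotypes the library numbered 4 is the lowest for the set, the wider list and the cycling markers, and villus markers lie below their WT mean in every Rank-knockout library.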

How the data were processed

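Libraries were prepared by the authors from total RNA with the Lexogen QuantSeq 3′ mRNA-Seq FWD kit and sequenced as single reads. The authors trimmed them with BBDuk, used bowtie2 to discard those from ribosomal DNA, the mitochondrial chromosome and phiX, and mapped what was left with STAR (GRCm38) before strand-specific counting of Ensembl genes by featureCounts. The deposited values are raw counts per gene; no molecular identifiers are mentioned, so PCR copies are counted. The labels number samples within a genotype and name no animals, so p-values measure the spread between these samples, and counting error covers reads only.

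All genes were fitted together with edgeR 4.0.16 in R 4.3.3 (filterByExpr, TMM scaling, robust quasi-likelihood F-test, genotype as the only term), and p-values were adjusted by Benjamini-Hochberg over 9855 tested genes with a threshold of 0.05. SEs come from the F statistic, CPM from TMM library sizes and log2 CPM from a prior count of 2. Of 54532 genes 33764 had 0 counts in all libraries. Libraries of a genotype differed beyond sampling noise (chi-square per degree of freedom 3.97 to 22.2), so none was a duplicate.

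The genes of the set, the 134 further pathway genes (133 matched) and the marker lists were chosen with earlier results of these data known. Values are given in full for Tnfrsf11a, the 2 genes of each role with the smallest p, all genes without a call, untested genes, partner genes and up to 2 pathway genes per role and direction; Dkc1, Nhp2, Npm1, Lyar, Polr1e, Nob1, Snu13 and Mxd4 were added after their values were seen, to complete a role or a count. Partner ratios were compared by an exact permutation test chosen after seeing the data. Alternatives were other tests (DESeq2 1.42.0 and limma-voom, limma 3.58.1), other scalings (RLE, totals alone, or totals leaving out the 50 most abundant genes), no filter or one at a mean of 5 CPM, a replicate block, thinning to the shallowest total, TMM without the set and ribosomal protein genes, each library left out, and both libraries numbered 4 left out.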

Additional observations from a re-analysis of the deposited data

Results flagged for a closer look

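Among the 104 sets of 4 values formed by the 52 tested genes in each genotype, 7 held a library far from the other 3 (Dixon's ratio above its critical value for 4 values), where 5.2 are expected at 1 in 20. WT replicate 4 was low for Ncl, at 314 CPM against 485 to 515 in the other WT libraries, for Npm1, at 43.9 against 67.1 to 70.2, and for Rrp1b, at 17.3 against 30.7 to 31.4. Rank-knockout replicate 4 was low for Dkc1, at 146 CPM against 291 to 317, for Znhit6, at 18.7 against 44.4 to 45.8, and for Nip7, at 16.9 against 23.8 to 24.8. Znhit3 was high in WT replicate 3, at 8.88 CPM against 3.33 to 4.11. So 6 of the 7 values were the low value of a library numbered 4, the libraries in which most genes of the set and the summed cycling markers were lowest within their genotype.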

How the results depend on the processing

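All 52 tested genes of the set kept a positive log2 fold change under all 19 alternatives that tested them, with 0 reversed. The number higher was 44, with a range of 33 to 47 over the 8 fits that left out 1 library, and the number lower was 0 in each fit. In those 8 fits 10% to 17.5% of all tested genes were higher. Of the 44, 40 passed in every alternative other than leaving out 1 library, the exceptions being Polr1e, Znhit6, Bop1 and Rrp1b. The median was 0.80 to 1.10 with 1 library left out. The wider list with the MYC network had 64 genes higher, 51 with limma-voom, 84 with library totals, and 37 to 68 with 1 library left out; it fell to 41 without WT replicate 3, 38 without WT replicate 4 and 37 without Rank-knockout replicate 1. Its lower genes numbered 3, and 2 to 4 with 1 library left out. Among all tested genes the share higher was 15.8% in the main fit. It was 11.8% without WT replicate 3, 10% without WT replicate 4 and 10.8% without Rank-knockout replicate 1. Library totals raised the share of higher genes among all calls from 52% to 75%, and leaving the 50 most abundant genes out of library sizes raised it to 68.1%. The log2 ratio of Ruvbl1 to Ruvbl2 differed by -1.55 to -1.23 with 1 library left out. Same-numbered libraries did not deviate together throughout (correlations 0.0517, 0.153, -0.139 and 0.323, with 2 of 4 matching their own number best). With 4 numbers this cannot decide whether the libraries were paired. With the replicate block 47 genes of the set were higher and 0 lower, with a median of 0.95, and 66 and 4 of the wider list were higher and lower. At 10 CPM counting error alone was 14.6% to 26.2% per library, which limits Polr1e, Ruvbl1, Ruvbl2, Znhit3 and Nle1.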
